A study of Mus musculus with 18 samples.

Results

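The genes described here encode ligands of the interleukin-6 and interleukin-12 families, chosen by their symbols: Il6, Il12a, Il12b, Il23a, Il27, Ebi3, Lif and Osm. All 8 were present among the 16909 gene symbols of the count table, and all 8 passed the filter on low counts that left 12465 genes for testing. They were measured by poly(A) RNA sequencing of mouse bone marrow macrophages in 18 libraries of 4 groups. The UVABs and STSABs groups (n = 5 libraries each) received apoptotic bodies, the membrane-bound fragments of dying cells, made from cells the labels call hucMSC after induction with UV or with STS, and named there as anti-inflammatory treatments. The LPS group (n = 5) was the positive control for inflammation, lipopolysaccharide being a bacterial component sensed through Toll-like receptor 4, and Con (n = 3) was the mock group. The labels do not say whether the apoptotic body groups also received LPS, at which dose or for how long, nor the strain, age or sex of the mice, nor whether replicates were separate cultures or animals, so each p-value speaks of the spread among these libraries alone, and that spread may be technical.

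Interleukin-6, leukemia inhibitory factor (Lif) and oncostatin M (Osm) are single-chain ligands whose receptors share the chain encoded by Il6st, and they signal mainly through STAT3. The interleukin-12 family is built of paired chains. The chain encoded by Il12b pairs with that of Il12a to make interleukin-12 and with that of Il23a to make interleukin-23, while the chains of Il27 and Ebi3 make interleukin-27. Macrophages and dendritic cells are main sources of these paired cytokines, which steer T cells and NK cells.

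Levels are given as CPM, counts per 1000000 with library sizes scaled by TMM factors, and changes as log2 fold changes ± an approximate SE from edgeR's quasi-likelihood fit of all 18 libraries. "Rose" and "fell" are kept for genes whose adjusted p (Benjamini-Hochberg, over all genes tested) was under 0.05. The libraries held between 17588357 and 18675283 estimated counts. The 9 macrophage markers summed to 10599 to 12102 CPM in UVABs, 9882 to 11023 in STSABs, 12388 to 13770 in LPS and 10879 to 11773 in Con. Most of the sum was Lyz2, a lysozyme, at 7408 ± 368 CPM in UVABs, 6975 ± 588 in STSABs, 9551 ± 477 in LPS and 8002 ± 443 in Con (SD). Against LPS 3 of the 9 rose and 4 fell in each apoptotic body group, and in LPS against Con 4 rose and 4 fell. Over all genes tested, 57.4% were called in each comparison with LPS and 83.0% in LPS against Con. Replicate 2 of UVABs and replicate 2 of STSABs stood apart from the other libraries of their groups, and values without both are given where they matter.

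The upstream regions of 4 members are shown because these members moved in different ways below: Il6 fell and Lif and Ebi3 rose in both apoptotic body groups relative to LPS, while Il12b had the highest level per length of the 8 members in UVABs, STSABs and LPS, though not in Con. Promoter windows of RefSeq on GRCm38.p6, not the mm39 build of the submitters' notes, matched 5 of the 8 members (Il6, Il12a, Il12b, Ebi3 and Lif), and the 250 bases before the annotated start are printed 5′ to 3′ on the plus strand. Capitals mark matches, on either strand, to the NF-kB consensus, to TTGCNNAA (C/EBP factors) or to TGANTCA (AP-1). A pair of GAAA copies 2 bases apart, which interferon regulatory factors bind, and ACGTG, the core of HIF sites, were searched too and had no match in the windows of these 5 members.
Il6, chr5:30012864-30013113: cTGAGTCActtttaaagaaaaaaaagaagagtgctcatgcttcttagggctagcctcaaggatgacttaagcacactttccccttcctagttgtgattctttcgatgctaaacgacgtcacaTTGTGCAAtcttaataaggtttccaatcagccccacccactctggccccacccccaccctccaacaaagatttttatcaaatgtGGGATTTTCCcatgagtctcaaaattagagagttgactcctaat
Il12b, chr11:44399813-44400062: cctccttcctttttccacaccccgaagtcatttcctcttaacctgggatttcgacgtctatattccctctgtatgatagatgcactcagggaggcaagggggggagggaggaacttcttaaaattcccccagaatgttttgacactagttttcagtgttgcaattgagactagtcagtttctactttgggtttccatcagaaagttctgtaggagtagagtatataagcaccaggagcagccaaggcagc
Ebi3, chr17:55952373-55952622: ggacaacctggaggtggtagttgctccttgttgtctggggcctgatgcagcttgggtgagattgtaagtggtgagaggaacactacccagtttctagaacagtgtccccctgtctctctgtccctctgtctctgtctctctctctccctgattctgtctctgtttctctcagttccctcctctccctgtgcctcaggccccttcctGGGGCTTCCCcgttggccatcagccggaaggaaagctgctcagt
Lif, chr11:4257318-4257567: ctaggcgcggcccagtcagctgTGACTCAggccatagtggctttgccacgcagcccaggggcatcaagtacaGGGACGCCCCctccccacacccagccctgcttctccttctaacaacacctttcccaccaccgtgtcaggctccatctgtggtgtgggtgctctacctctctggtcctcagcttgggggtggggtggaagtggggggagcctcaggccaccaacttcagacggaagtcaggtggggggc

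The NF-kB consensus was matched in Il6 and in Ebi3 at 44 to 35 bases before the start, and in Lif at 178 to 169 bases before it. Of 32841 promoter windows of the mouse genome, 7.25% held this consensus, 9.57% TTGCNNAA, 6.75% TGANTCA, 2.98% the paired GAAA and 16.6% ACGTG. The windows of Il12b and Il12a held no match, which says only that these letters are not in these stretches. A match describes the letters and was not tested as a binding site. Osm and Lif are neighbours on chromosome 11 in RefSeq, with 0 genes that start between them.

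The positive control changed the whole family. All 8 members rose in LPS against Con, by log2 fold changes of 1.31 to 10.76, with a median of 7.29 over the list against -0.03 over all genes tested. Of all genes tested, 83.0% were called, 40.0% higher and 43.0% lower. Il6, Il12a, Il12b, Il23a and Il27 rose by 7.12 to 10.76, and Ebi3, Lif and Osm by 1.31 to 2.89. In bulk RNA a change in the number of cells that make a transcript cannot be told apart from a change in RNA per cell.

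Il12b, the shared chain of interleukins 12 and 23, read 4100, 3770, 3834, 4115 and 2890 CPM in the LPS libraries and 2.17, 2.02 and 2.24 CPM in the Con libraries. Every LPS library lay over 1000 times above every Con library, and the rise was 10.76 ± 0.36 (edgeR, adjusted p = 1.36e-17). Il6 read 1306, 1330, 1368, 1291 and 1399 CPM in LPS against 4.34, 3.36 and 3.69 CPM in Con (8.46 ± 0.10; adjusted p = 1.16e-24).
The chains that pair with Il12b were scarce in Con. Il12a had 11 counts and Il23a 9 counts over all 3 Con libraries, so their changes rest on few counts on the Con side. Il12a reached 15.7, 19.7, 21.9, 20.2 and 19.4 CPM in LPS (7.12 ± 0.22), and Il23a 17.6, 20.9, 21.1, 21.4 and 20.3 CPM (7.46 ± 0.38).

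The interleukin-27 chains differed in their starting level. Il27 had 162 ± 14.2 CPM in LPS and 0.458 ± 0.151 CPM in Con (8.45 ± 0.14), while Ebi3 had 283 ± 16.4 CPM in LPS and 38.0 ± 4.32 CPM in Con (2.89 ± 0.09). Lif, which maintains stem cells in culture and is needed for implantation in the mouse, rose 2.48-fold (1.31 ± 0.18; edgeR, adjusted p = 9.43e-07). Its LPS libraries held 15.5, 15.0, 17.0, 16.4 and 20.6 CPM and its Con libraries 6.37, 7.44 and 6.58 CPM, with no overlap. Osm rose 2.71-fold (1.44 ± 0.14), to 84.3 ± 7.49 CPM in LPS against 31.1 ± 2.97 CPM in Con. The sizes depend on scaling. Upper-quartile scaling moved the median of all genes to -0.31 and library totals alone moved it to -0.78, and all 8 members still rose. Lif, the smallest rise, was then 1.03 and 0.57, and Osm 1.16 and 0.69.

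**Figure D1:**
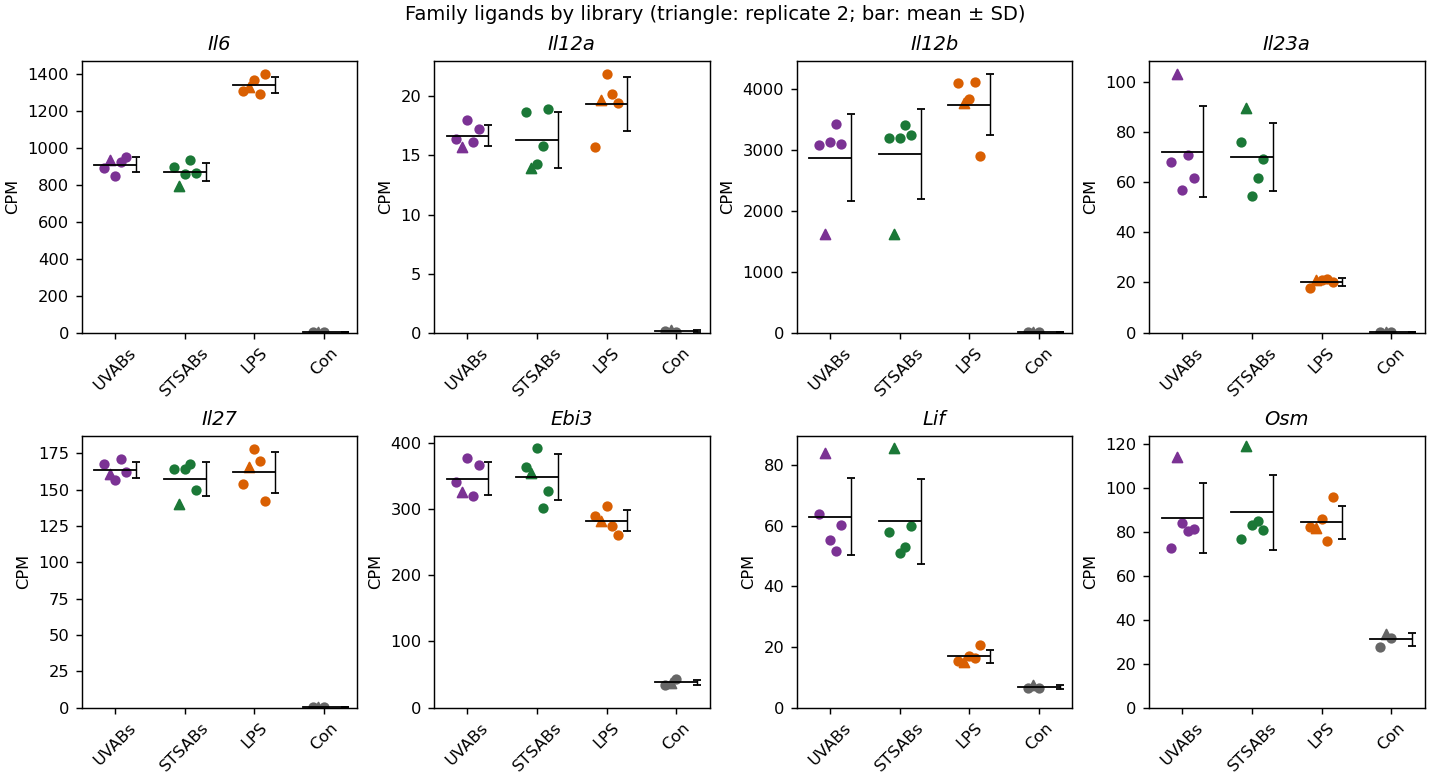
Each panel plots one ligand gene, with CPM on a linear axis from 0 and one point per library in UVABs, STSABs, LPS (n = 5 each) and Con (n = 3); triangles are replicate 2, horizontal bars the mean and whiskers the SD. Il6 was lower, and Il23a and Lif higher, in every UVABs and STSABs library than in every LPS library, and Il12b was lowest in replicate 2 of both apoptotic body groups (1619 and 1621 CPM).

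Both treatments were compared with the inflamed control, using the same 5 LPS libraries. The family split: Il23a, Lif and Ebi3 were higher than in LPS, Il6 was lower, and Il27 and Osm differed from it by at most 0.08 on the log2 scale. In UVABs against LPS 3 members rose and 1 fell, where 57.4% of all genes tested were called, 28.6% higher and 28.8% lower. In STSABs against LPS 3 members rose and 2 fell, where 57.4% were called, 28.4% higher and 29.0% lower. With these backgrounds the shares of members called do not stand out, and the sizes of single members are described instead. Without replicate 2 of both apoptotic body groups, the members called were Il23a, Lif and Ebi3 (higher) and Il6 and Il12b (lower) in each comparison.

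Lif was at 64.0, 84.1, 55.4, 51.6 and 60.2 CPM in UVABs, at 57.9, 85.6, 51.0, 53.0 and 59.9 CPM in STSABs, and at 15.0 to 20.6 CPM in LPS. The lowest apoptotic body library had more than double the Lif of the highest LPS library. Lif rose 3.73-fold in UVABs (1.90 ± 0.14; edgeR, adjusted p = 3.20e-10) and 3.64-fold in STSABs (1.86 ± 0.14; adjusted p = 4.06e-10), and by 1.77 and 1.72 without the libraries numbered 2. LPS itself had raised Lif 2.48-fold over Con, a smaller ratio than that of either treatment to LPS, although the difference in size was not tested. Its neighbour Osm did not pass. Osm had 72.8 to 114 CPM in UVABs, 76.8 to 119 in STSABs and 75.7 to 96.0 in LPS, and differed from LPS by 0.03 ± 0.11 in UVABs (95% interval -0.19 to 0.26) and 0.08 ± 0.11 in STSABs (-0.15 to 0.30).

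Il23a, the chain specific to interleukin-23, was at 68.0, 103, 56.8, 70.6 and 61.5 CPM in UVABs and at 75.9, 89.6, 54.4, 61.5 and 69.2 CPM in STSABs, against 17.6 to 21.4 CPM in LPS. No library of either treatment overlapped with LPS. Il23a rose 3.55-fold in UVABs (1.83 ± 0.14; edgeR, adjusted p = 5.74e-10) and 3.46-fold in STSABs (1.79 ± 0.14; adjusted p = 7.32e-10), and by 1.66 and 1.69 without the libraries numbered 2. The chain it pairs with went the other way or did not pass. Il12b had 3075, 1619, 3124, 3429 and 3101 CPM in UVABs and 3190, 1621, 3192, 3399 and 3236 CPM in STSABs, against 4100, 3770, 3834, 4115 and 2890 CPM in LPS. Apart from LPS replicate 5, every LPS library was above every apoptotic body library, and the groups overlapped through that one library.

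The change of Il12b was -0.38 ± 0.17 in UVABs (edgeR, adjusted p = 0.0656) and -0.35 ± 0.17 in STSABs (adjusted p = 0.0884). Neither passed, and both calls turned on single libraries. Without both libraries numbered 2, Il12b fell by 0.23 in UVABs (edgeR, adjusted p = 0.00545) and by 0.20 in STSABs (adjusted p = 0.0155), a smaller change over a smaller spread. It also passed without LPS replicate 5 (-0.46 and -0.43), and, in 1 comparison each, on leaving out UVABs replicate 4 (-0.45, UVABs against LPS), STSABs replicate 2 (-0.38, the same comparison) or UVABs replicate 2 (-0.35, STSABs against LPS). Over all alternatives the adjusted p of edgeR or DESeq2 ran from 0.00545 to 0.160 in UVABs and from 0.00994 to 0.227 in STSABs.

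Il12a, the chain specific to interleukin-12, read 16.4, 15.7, 18, 16.1 and 17.2 CPM in UVABs, 18.7, 13.9, 14.3, 15.8 and 18.9 CPM in STSABs and 15.7 to 21.9 CPM in LPS. The groups overlapped, with LPS replicate 1 as low as the apoptotic body libraries. Il12a fell in STSABs by 0.25 ± 0.09 (edgeR, adjusted p = 0.0265) and was -0.21 ± 0.09 in UVABs (adjusted p = 0.0523). The call in STSABs was lost without STSABs replicate 2 or 3 or LPS replicate 3 (-0.20 each), without LPS replicate 4 (-0.23), and without both libraries numbered 2 (-0.19; adjusted p = 0.0588). In UVABs it passed without LPS replicate 1 (-0.28), UVABs replicate 3 (-0.24) or STSABs replicate 1, 2, 3 or 5 (-0.22 each). Over all alternatives its adjusted p, from edgeR or DESeq2, ran from 0.0101 to 0.260 in UVABs and from 0.00478 to 0.0911 in STSABs. The values on both sides of the threshold are thus close, and the difference between the treatments was 0.03 ± 0.09.

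Il6 read 891, 934, 845, 923 and 950 CPM in UVABs and 894, 795, 857, 931 and 863 CPM in STSABs, against 1291 to 1399 CPM in LPS. Its groups did not overlap and its spread was small. Il6 fell 1.47-fold in UVABs (-0.56 ± 0.05; edgeR, adjusted p = 9.61e-09) and 1.54-fold in STSABs (-0.63 ± 0.05; adjusted p = 1.82e-09), and stayed 239 and 228 times above Con. Ebi3 was at 340, 325, 377, 320 and 366 CPM in UVABs and at 364, 355, 392, 301 and 327 CPM in STSABs, against 289, 282, 305, 275 and 261 CPM in LPS. It rose 1.22-fold in UVABs (0.29 ± 0.07; edgeR, adjusted p = 0.00122) and 1.23-fold in STSABs (0.30 ± 0.07; adjusted p = 0.000902), where STSABs replicate 4 lay below the highest LPS library. Il27, its partner, had 157 to 171 CPM in UVABs, 140 to 168 in STSABs and 142 to 178 in LPS. Il27 differed from LPS by 0.02 ± 0.06 in UVABs (95% interval -0.11 to 0.14) and by -0.04 ± 0.06 in STSABs (-0.17 to 0.08), neither past the threshold.

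**Figure D2:**
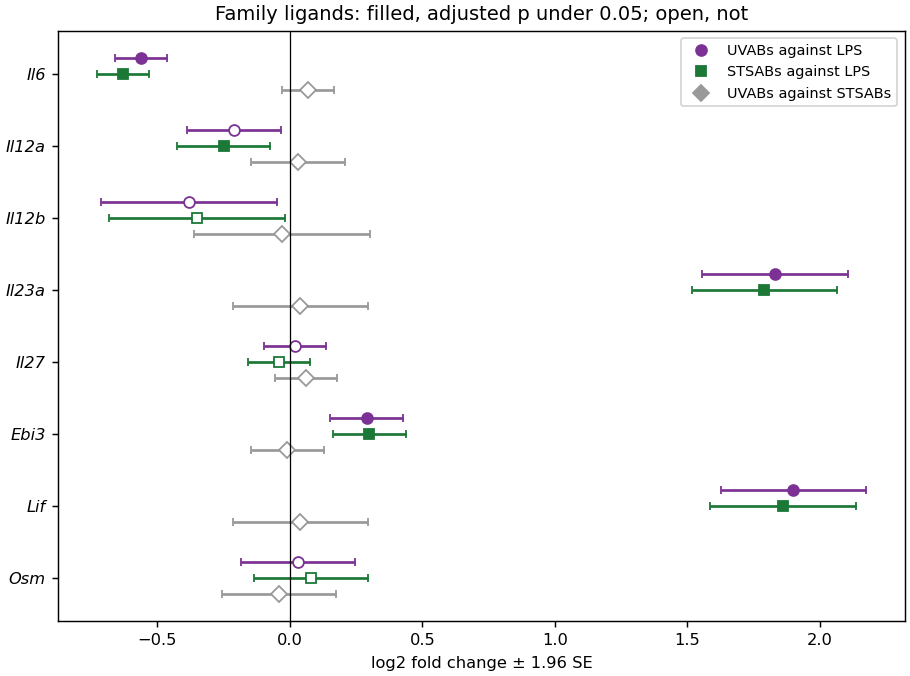
The log2 fold change of each ligand gene is plotted for UVABs against LPS, STSABs against LPS and UVABs against STSABs; bars are 1.96 times the SE, and filled symbols have an edgeR adjusted p under 0.05. Il23a and Lif lie between 1.79 and 1.90 in both comparisons with LPS and Il6 at -0.56 and -0.63, and all 8 values of UVABs against STSABs are open symbols within 0.07 of 0.

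UVABs against STSABs compares the 2 ways in which the bodies were induced. None of the 8 members was called by edgeR or by DESeq2, and none reached an unadjusted p under 0.05 in edgeR. Of all genes tested 0% were called by edgeR or by DESeq2, with 198 and 151 genes at an unadjusted p under 0.05. The log2 fold changes ran from -0.04 (Osm) to 0.07 (Il6), and the widest 95% interval, that of Il12b, reached from -0.37 to 0.31. For Il6 the interval was -0.04 to 0.17, for Il23a -0.22 to 0.29 and for Lif -0.21 to 0.29. These intervals and unadjusted p-values come from fits without pairing, and no paired intervals are given. Same-numbered libraries of these 2 groups deviated together, most clearly those numbered 2 (r = 0.540) and 4 (r = 0.288). When that number was added as a block the values of all 8 members stayed between -0.04 and 0.07, with none called. In a fit of both groups alone with this block, 457 of 11732 genes had an unadjusted p under 0.05 (edgeR) and 0 were called.

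The comparisons with Con are secondary and share their Con libraries with LPS against Con. All 8 members were higher in UVABs and in STSABs than in Con, where 82.6% of all genes tested were called in each, 40.2% and 40.0% higher and 42.4% and 42.6% lower. Lif was 9.27 and 9.04 times its Con level, Il23a 625 and 609 times, Ebi3 9.08 and 9.15 times, Osm 2.78 and 2.86 times, and Il12b 1334 and 1361 times.

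Within a library, the ratio of 2 members does not depend on scaling, and 5 such count ratios were compared over 3 pairs of groups with exact two-sided permutation tests, 15 tests in all. With 5 against 5 libraries the smallest p they can give is 0.00794. The Il12b to Il23a ratio had values of 45.2, 15.7, 55.0, 48.6 and 50.4 in UVABs and 42.0, 18.1, 58.6, 55.3 and 46.8 in STSABs, against 142 to 233 in LPS. It was 4.64 times lower in UVABs and 4.48 times lower in STSABs than in LPS, lower in 5 of 5 libraries of each (exact permutation p = 0.00794, adjusted p = 0.0298 for both). This separation follows from the Il23a and Il12b levels given above, so the test restates them and adds no separate evidence. Counts of Il12b thus exceeded those of Il23a in every library, by a narrower margin in the treated groups. The Il12b to Il12a ratio did not pass, at 171 ± 41.0 in UVABs, 180 ± 42.7 in STSABs and 196 ± 41.5 in LPS (exact permutation adjusted p = 0.623 for both against LPS).

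The Osm to Lif ratio was 1.38 ± 0.165 in UVABs and 1.46 ± 0.146 in STSABs, against 5.02 ± 0.374 in LPS, 3.64 and 3.44 times lower (exact permutation p = 0.00794, adjusted p = 0.0298 for both). Its separation likewise follows from the levels of Lif and Osm given above. The Il27 to Ebi3 ratio was 0.477 ± 0.0468 in UVABs, 0.456 ± 0.0625 in STSABs and 0.573 ± 0.0356 in LPS, with an exact permutation adjusted p of 0.0476 in UVABs and 0.0595 in STSABs; the call in UVABs was lost without UVABs replicate 2 (adjusted p = 0.0680). The Il12b to Il6 ratio did not pass against LPS, with 3.17 ± 0.825 in UVABs, 3.35 ± 0.735 in STSABs and 2.81 ± 0.449 in LPS. Without UVABs replicate 2 it was higher in UVABs than in LPS by 0.35 (log2; exact permutation adjusted p = 0.0476), and without STSABs replicate 2 higher in STSABs by 0.41 (adjusted p = 0.0397). None of the 5 ratios differed between UVABs and STSABs past the threshold (exact permutation adjusted p from 0.623 to 0.802). Leaving out UVABs replicate 1, 3 or 5 or LPS replicate 2, 3, 4 or 5 ended all 5 calls. The directions of those 5 ratios stayed, and 4 against 5 libraries allow no p below 0.0159.

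**Figure D3:**
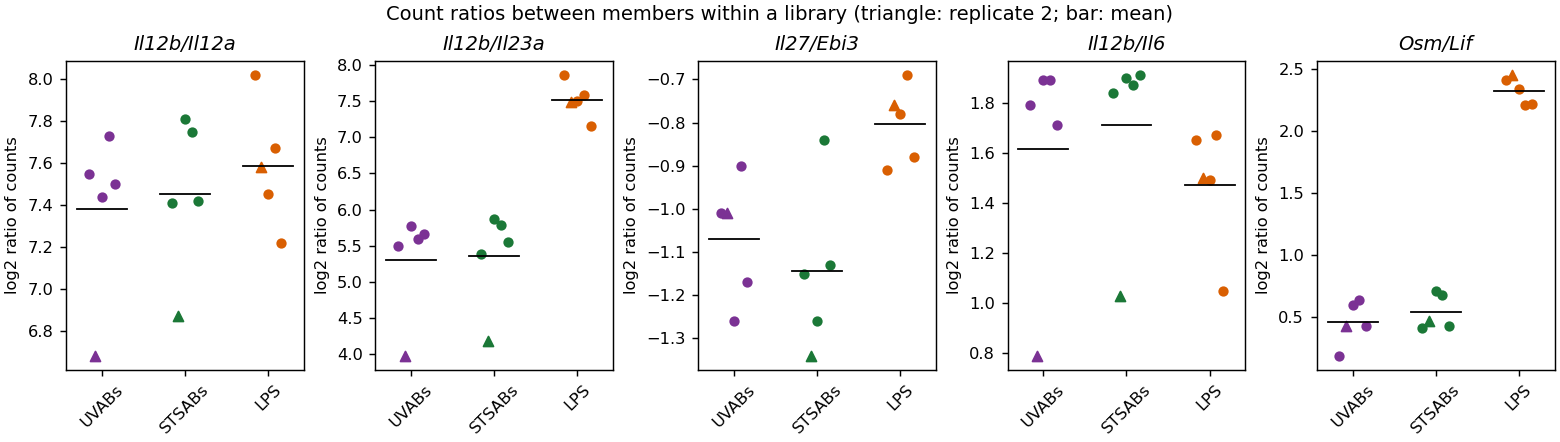
Each panel plots the log2 ratio of the counts of 2 members within a library, one point per library of UVABs, STSABs and LPS (n = 5 each), with triangles for replicate 2 and bars for the mean; the axes do not start at 0. The Il12b to Il23a and Osm to Lif ratios of all UVABs and STSABs libraries lie below those of all LPS libraries.

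Levels of different members were compared per kilobase of transcript, with the length of the principal transcript in GENCODE M21. In LPS the order was Il12b (1925 ± 257 CPM per kb), Il6 (1174 ± 39.0), Ebi3 (245 ± 14.2), Il27 (159 ± 13.9), Osm (37.1 ± 3.30), Il12a (15.3 ± 1.77), Il23a (14.9 ± 1.14) and Lif (4.20 ± 0.547). Il12a and Il23a were not apart there, with ranges of 12.4 to 17.3 and 12.9 to 15.8 CPM per kb. In UVABs Il23a stood above Osm, at 52.9 ± 13.3 against 38.0 ± 6.94 CPM per kb, with ranges that overlapped. Lif, at 15.7 ± 3.14 CPM per kb in UVABs, was near Il12a, at 13.2 ± 0.704, and these ranges overlapped too. STSABs had 51.6 ± 9.96 CPM per kb for Il23a, 39.1 ± 7.51 for Osm, 15.3 ± 3.47 for Lif and 12.9 ± 1.88 for Il12a. In Con the order was Ebi3 (33.0 ± 3.75 CPM per kb), Osm (13.7 ± 1.31), Il6 (3.33 ± 0.440), Lif (1.69 ± 0.140), Il12b (1.10 ± 0.0577), Il27 (0.449 ± 0.148), Il12a (0.105 ± 0.0435) and Il23a (0.0797 ± 0.0265), the last pair with 11 and 9 counts in all.

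Members also varied among libraries of the same group. Replicate 2 of UVABs held 0.509 times, and replicate 2 of STSABs 0.498 times, the mean Il12b level of the other 4 libraries of its group. The same libraries held 1.60 and 1.37 times the Il23a, 1.45 and 1.54 times the Lif and 1.43 and 1.46 times the Osm of the others, and were the highest of their groups for all 3. LPS replicate 5 had the lowest Il12b (0.731 times the others) and the highest Lif (1.29 times) and Osm (1.18 times) of LPS, while its Il23a was equal to the mean of the others. Over the 15 libraries of UVABs, STSABs and LPS, Pearson's r of log2 CPM was 0.99 between Il23a and Lif, -0.95 between Il6 and Lif and -0.86 between Il12b and Osm. These correlations describe libraries that share their group structure and depth.

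Symbols made of Gm and a number or ending in Rik were left out of a search for genes like each member. Among the 8915 remaining genes with a mean of at least 5 CPM over these 15 libraries, those with the pattern most like a member were found by the same measure. For Il23a they were Klrb1b (r = 0.993), Mxi1 (0.991) and Phf20 (0.990), and for Lif Mxi1, Pdgfa and Chp1 (0.992 each). Mxi1, which encodes a partner of MAX that opposes MYC, was named by both. This overlap adds nothing to the r of 0.99 between Il23a and Lif. For Il6 they were Slamf8 and Clec4e (0.992 each) and Acod1 (0.991), which encodes the enzyme that makes itaconate. For Il12b they were Tbc1d15 (0.981), Sgcb (0.976) and Fcrls (0.973), and for Ebi3 Mrtfa (0.955), Atf4 (0.943) and Pabpc1 (0.941). The closest for Osm were Mapk14 (0.919), Smim3 (0.911) and Pigs (0.909), and for Il12a Pi4k2a (0.874), Dgkz (0.835) and St3gal3 (0.824). Il27 had the loosest likeness, with Evl (0.821), Tnfsf13 (0.811) and Sptlc2 (0.784).

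The receptors of these ligands were measured as well, 9 of 10 passing the filter (Cntfr did not). In LPS against Con 4 rose and 5 fell, also under upper-quartile scaling and library totals alone. Lifr, the receptor chain for Lif, fell to 0.848 ± 0.190 CPM in LPS against 19.8 ± 1.06 CPM in Con (-4.54 ± 0.15; edgeR, adjusted p = 1.31e-17). Il6ra fell by 1.54 ± 0.09 and Il6st, the shared signalling chain, by 1.16 ± 0.07, while Il27ra (-0.60 ± 0.18) and Il11ra1 (-0.39 ± 0.09) fell less. Il12rb1 and Il12rb2, which form the interleukin-12 receptor, rose by 2.97 ± 0.19 and 2.93 ± 0.07, and Il23r rose to 10.4 ± 0.776 CPM in LPS against 0.313 ± 0.0753 CPM in Con (5.03 ± 0.21). Osmr had 64 counts in LPS and 1 in Con, 64.4 times higher with a 95% counting interval of 11.1 to 2582.

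In UVABs against LPS 0 receptors rose and 4 fell, and in STSABs 0 rose and 5 fell (5 and 6 without the libraries numbered 2, 3 and 5 with DESeq2, 4 and 4 with library totals alone). Over all genes tested 28.8% and 29.0% were lower, 57.4% were called in each of these comparisons and 83.0% in LPS against Con, so calls in both directions were common among all genes. The counts here and in the lists that follow describe the lists, and no list was tested against these shares. Il23r, the receptor chain that binds the Il23a product, was at 4.45 ± 0.946 CPM in UVABs and 4.0 ± 0.582 in STSABs, against 10.4 ± 0.776 in LPS (-1.23 ± 0.12 and -1.38 ± 0.12; edgeR, adjusted p = 2.65e-08 and 5.57e-09). It fell where Il23a rose. Il6ra fell by 0.52 ± 0.09 and 0.54 ± 0.09, Osmr by 0.81 ± 0.30 and 1.16 ± 0.32, and Il11ra1 by 0.29 ± 0.08 and 0.37 ± 0.08. The change of Osmr rests on few counts, 3 to 11 per library in UVABs, 4 to 8 in STSABs and 10 to 18 in LPS. Lifr did not pass, at 0.963 ± 0.160 CPM in UVABs, 0.998 ± 0.399 in STSABs and 0.848 ± 0.190 in LPS. Il12rb2 was -0.10 ± 0.05 in UVABs and fell by 0.13 ± 0.05 in STSABs. Values that did not pass were -0.13 ± 0.07 in each comparison for Il6st, 0.15 ± 0.12 and 0.19 ± 0.12 for Il12rb1, and -0.31 ± 0.19 and -0.13 ± 0.18 for Il27ra.

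**Figure D4:**
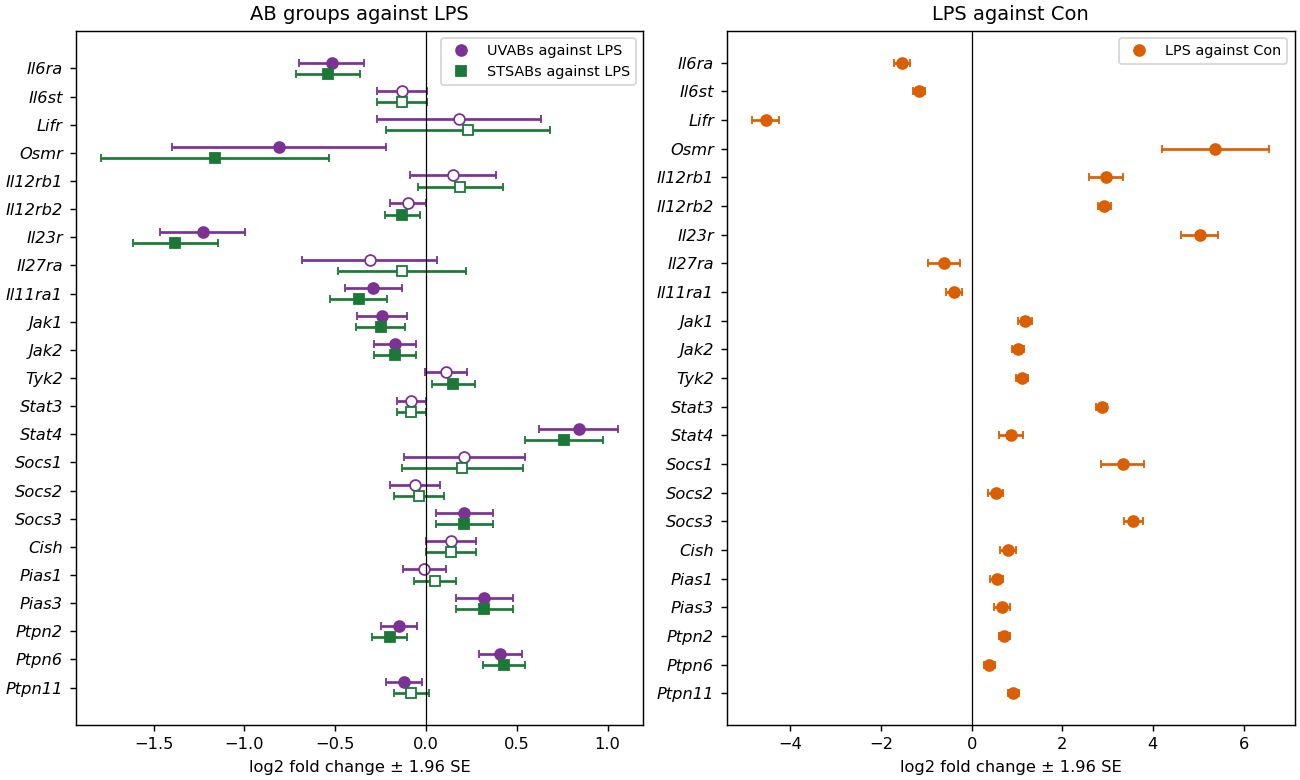
Log2 fold changes with 1.96 times the SE are plotted for the receptors and feedback inhibitors and for 5 of the 6 JAK kinases and STAT factors, in both apoptotic body groups against LPS (left) and in LPS against Con (right); filled symbols have an edgeR adjusted p under 0.05. Il23r lies at -1.23 and -1.38 and Stat4 at 0.84 and 0.76 on the left, and Lifr at -4.54 on the right.

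Of the other interleukin-6 family genes, Clcf1, which encodes a ligand of the Cntfr receptor complex, rose in LPS against Con (1.87 ± 0.12) and was 0.16 ± 0.09 in UVABs and 0.13 ± 0.09 in STSABs against LPS, not past the threshold. Cntf was 0.48 ± 0.21 in UVABs and 0.45 ± 0.21 in STSABs against LPS and 0.43 ± 0.24 in LPS against Con, and passed in none of these. Il11 and Ctf1 did not pass the filter on low counts, and Il31 was absent from the count table. All 6 kinases and STAT factors rose in LPS against Con (5, and 0 lower, with library totals alone), with Stat3 at 2.87 ± 0.06. Against LPS 1 rose and 3 fell in UVABs (2 and 2 with library totals alone, 2 and 3 without the libraries numbered 2). In STSABs 2 rose and 3 fell (2 and 2, and 2 and 4, under the same alternatives). Stat4, the factor that the interleukin-12 receptor activates, rose by 0.84 ± 0.11 in UVABs and 0.76 ± 0.11 in STSABs. Jak1 fell by 0.24 ± 0.07 and 0.25 ± 0.07, and Jak2 by 0.17 ± 0.06 in each, while Stat3 was -0.08 ± 0.04 in each and did not pass.

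All 9 feedback inhibitors of JAK-STAT signalling rose in LPS against Con, with Socs3 at 3.57 ± 0.11 and Socs1 at 3.33 ± 0.24, but with library totals alone 3 rose and 3 fell. Against LPS 3 rose and 2 fell in UVABs (4 and 0 with library totals alone), and 3 rose and 1 fell in STSABs (4 and 1 with library totals alone). Socs3, which shuts off signalling through the Il6st chain, rose by 0.21 ± 0.08 in each, Ptpn6 by 0.41 ± 0.06 and 0.43 ± 0.06 and Pias3 by 0.32 ± 0.08 in each, and Ptpn2 fell by 0.15 ± 0.05 and 0.20 ± 0.05. Of 15 genes known as STAT3 targets, 7 rose and 4 fell in each comparison with LPS (7 and 3 with library totals alone). These counts were 7 and 5 in UVABs and 7 and 6 in STSABs without the libraries numbered 2. Cebpd fell by 0.96 ± 0.06 in UVABs and 0.81 ± 0.06 in STSABs, Il10 by 1.11 ± 0.13 and 1.09 ± 0.13, while Mcl1, a survival factor, rose by 0.29 ± 0.04 and 0.26 ± 0.04. In LPS against Con 13 of the 15 rose and 2 fell (10 and 3 with library totals alone).

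Of 19 transcription regulators known to act at cytokine genes, 16 rose and 2 fell in LPS against Con (13 and 4 with library totals alone), with the smallest adjusted p for Irf7 (7.03 ± 0.12), Nfkbiz (5.07 ± 0.09), a nuclear cofactor needed for Il6 and Il12b induction, and Nfkb1 (2.72 ± 0.05). Against LPS 6 rose and 3 fell in UVABs, and 7 rose and 4 fell in STSABs. Those counts were 7 and 5 in each without the libraries numbered 2, and 8 and 3 in each with library totals alone. Nfkb1 fell by 0.35 ± 0.04 and 0.34 ± 0.04, and Spi1 by 0.44 ± 0.05 in each, while Jun rose by 0.44 ± 0.07 and 0.49 ± 0.07. Of 11 proteins that stabilise or degrade cytokine mRNAs, 4 rose and 4 fell in each comparison with LPS (3 and 4 in STSABs without the libraries numbered 2). Zc3h12c fell by 1.19 ± 0.12 and 1.20 ± 0.12, Elavl1 by 0.36 ± 0.04 and 0.34 ± 0.04, and Arid5a, which protects Il6 mRNA from decay, by 0.34 ± 0.05 and 0.37 ± 0.05. Zfp36, or tristetraprolin, which marks cytokine mRNAs for decay, rose by 0.43 ± 0.06 and 0.38 ± 0.06, and Zfp36l2 by 0.42 ± 0.05 and 0.41 ± 0.05. In LPS against Con 8 of these 11 rose and 1 fell (7 and 3 with upper-quartile scaling, 4 and 4 with library totals alone).

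Adam17, the main sheddase of the interleukin-6 receptor, and its partner Rhbdf2 fell in UVABs against LPS by 0.55 ± 0.10 and 0.45 ± 0.05, and Timp3, an inhibitor of Adam17, by 1.37 ± 0.15. In STSABs they fell by 0.55 ± 0.10, 0.45 ± 0.05 and 1.21 ± 0.15. Of the 5 genes of this list, 1 rose and 4 fell in UVABs, and 0 rose and 4 fell in STSABs. In LPS against Con 4 rose and 1 fell (3 and 1 with either other scaling).

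Markers of other cell types moved beside the ligands. Of 9 neutrophil markers, 8 rose in UVABs and 9 in STSABs against LPS, and 0 fell, where 28.6% and 28.4% of all genes tested were higher. The share of the list was larger than that of all genes, a difference that was not tested. In LPS against Con 7 of the 9 rose and 1 fell (6 and 1 with upper-quartile scaling, 2 and 2 with library totals alone). These markers summed to 3058 to 4044 CPM in UVABs, 3167 to 4528 in STSABs, 1775 to 2447 in LPS and 1072 to 1328 in Con. None was at 0 in any group, and Ly6g, a small part of the sum, stood at 7.71 ± 1.67 CPM in UVABs, 7.80 ± 1.42 in STSABs and 4.78 ± 0.799 in LPS. Dendritic cell markers summed to 3733 to 4316 CPM in UVABs, 3757 to 4237 in STSABs, 3821 to 4052 in LPS and 1239 to 1395 in Con, and of the 7 tested 5 rose and 1 fell in each comparison with LPS. Summed lymphocyte markers stayed at or below 10.2 CPM in every library, 0 of the 5 tested were called against LPS, Cd3e was at 0 in STSABs and LPS, and Ncr1 at 0 in Con. Stromal markers summed to 42.0 to 51.4 CPM in UVABs, 39.5 to 51.7 in STSABs, 26.6 to 29.6 in LPS and 60.2 to 64.7 in Con, and of the 7 tested 3 rose in each comparison with LPS, with 0 falling in UVABs and 1 in STSABs. Mast cell and basophil markers summed to 61.4 to 96.2 CPM in UVABs, 71.0 to 98.3 in STSABs, 47.5 to 73.4 in LPS and 60.9 to 71.3 in Con, and of the 4 tested 3 rose and 1 fell in each comparison with LPS. The part of these cell types in the changes of the ligands was not tested.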

How the data were processed

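The authors deposited estimated counts per gene symbol for each library, not normalized; 6.35% of the values were not whole and were rounded, while all counts of the 8 members were whole. HISAT2 and mm39 are named in the submitters' processing notes. How reads were counted, with which annotation and strand setting, is not given in the sources used here. Genes were filtered with filterByExpr (99.97% of counts kept), scaled by TMM (mean factors 0.928 in UVABs, 0.932 in STSABs, 0.902 in LPS and 1.51 in Con) and tested with edgeR 4.0.16 in R 4.3.3 (quasi-likelihood, all 18 libraries, group means only, Benjamini-Hochberg over 12465 genes). The SE was derived from the fold change and its F statistic (log2 fold change over the root of F), and 95% intervals are 1.96 times the SE. Log2 CPM for correlations used a prior count of 2. Count ratios used a pseudocount of 0.5 in the test and exact permutations over libraries (SciPy 1.17.1). The counting interval is exact Clopper-Pearson and, like depth, covers counting error only. The edgeR fit was tested on simulated counts that held a common dispersion for all genes, with no outlying library or shared replicate effect. The permutation test was checked on an example with a known answer.

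Members and gene lists were chosen with earlier results of these data known. Named genes were all members and receptors, up to 4 genes of each other list with the smallest adjusted p, and the 3 genes most like each member. Same-numbered libraries of UVABs and STSABs had correlated deviations from their group means (r from 0.116 to 0.540), and differently numbered ones had r from -0.346 to 0.154. These ranges overlapped, and the pairs numbered 2 (0.540) and 4 (0.288) stood above the second. Shared numbers were taken as pairing for that comparison, from the data and not from the labels. In both groups against LPS (r from -0.028 to 0.069) and in LPS against Con (0.019 to 0.113) not every pair was over 0.1, and the numbers were not taken as pairing. UVABs and STSABs were not checked against Con in this way. Within groups no 2 libraries agreed within sampling noise. Alternatives were other scalings, DESeq2 1.42.0, other filters, smaller fits, the replicate block, and libraries left out. Some genes of the lists are not reported here by name.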

Additional observations from a re-analysis of the deposited data

Results flagged for a closer look

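Of 39 sets of 5 libraries tested (each member's CPM and each ratio in UVABs, STSABs and LPS), 9 had a library far from the other 4, its gap to the nearest one, as a share of the range, being past Dixon's 95% critical value; chance flags about 1 in 20 sets, and the sets share libraries. Of these, 8 concerned the libraries numbered 2. Il12b was lowest in UVABs replicate 2 (1619 CPM, the next being 3075) and in STSABs replicate 2 (1621 CPM, the next being 3190). Osm was highest in the same libraries, at 114 CPM (next 83.9) in UVABs and 119 CPM (next 84.9) in STSABs, and Lif in STSABs replicate 2 (85.6 CPM, next 59.9). The Il12b to Il23a ratio was lowest in UVABs replicate 2 (15.7, next 45.2), and the Il12b to Il6 ratio in UVABs replicate 2 (1.73, next 3.26) and STSABs replicate 2 (2.04, next 3.57). In LPS, Il12b was lowest in replicate 5 (2890 CPM, next 3770).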

How the results depend on the processing

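Of 1352 recomputed log2 fold changes of single members, 1326 kept their direction and side of the threshold, 18 passed only under the alternative, 8 no longer passed, and none reversed as a call; all 26 changes were in Il12a and Il12b against LPS. The number of members called was 4 to 6 in each comparison with LPS, 8 in each comparison with Con and 0 in UVABs against STSABs under every setting run. With the replicate number as a block, Il12b passed at -0.44 in UVABs and -0.41 in STSABs against LPS, where the numbers were not taken as pairing. The block changed no other call of a member. DESeq2 (-0.38, UVABs) and a fit of only UVABs and LPS (-0.37 for Il12b, -0.20 for Il12a) also passed, and the call of Il12a in STSABs was lost when scaled by totals (-0.20), when fitted on STSABs and LPS without other groups (-0.23) and with replicates 1 to 3 only (-0.28). Of 15 ratio tests 5 passed, and 0 to 6 did when a library was left out, where the smaller number of libraries itself limits the p-values. With the replicate block, a sign-flip test of 5 pairs, 0 passed, the smallest p it allows being 0.0625. Upper-quartile scaling gave 36% and library totals alone 21.2% of calls higher in LPS against Con, in place of 48.2%. Il23a and Il12a had 9 and 11 counts in Con, so depth limits the sizes of their rises.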
